A study of Rattus norvegicus with 36 samples.

Results

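The second postnatal week of rat leg muscle was followed by setting 3 arrays of postnatal day 14 against 3 arrays of postnatal day 7, which were chosen by their titles and are 6 of the 36 arrays of the series. Each array measured total RNA from a leg sample of gastrocnemius and soleus, a mostly fast and a mostly slow calf muscle, on the Affymetrix RG-U34A array. The series also holds leg arrays of days 0, 21, 28 and 45 and arrays of extraocular muscle (EOM), which moves the eye, at the same 6 ages, with 3 arrays in each of 12 groups. No treatment, allele, strain or sex is given in the labels for any group. Whether the 3 arrays of an age are from different animals is also not in the labels, so p-values here cover the spread among these samples, which may be technical. The leg sample is whole tissue, in which fewer cells of a type and less RNA per cell cannot be told apart, and the 2 muscles of the sample cannot be separated.

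Rat limb muscle is immature at birth. In the following weeks the fibres exchange embryonic and perinatal isoforms of the contractile proteins for adult ones, and each fibre is left with a single nerve input. Acetylcholine receptors, which receive the nerve's signal, become restricted to the neuromuscular junction and exchange their fetal gamma subunit for the adult epsilon subunit. Cell division and the making of connective tissue slow down, while mitochondria, fat oxidation and glycogen metabolism build up as the animal starts to move and then to eat.

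The results turn on genes of these roles, and the 250 bases upstream of the annotated start are shown for 4 of them, to set the promoters of genes that fell (Myl4, an embryonic and atrial myosin light chain, and Chrnd, the delta subunit of the acetylcholine receptor) beside those of genes that rose (Myh2, the fast IIA myosin heavy chain, and Acadm, an enzyme of fat oxidation). The sequences are from RefSeq on the rat build GRCr8, at chr10:89975900-89976149 on the + strand for Myl4, chr9:95310066-95310315 on the + strand for Chrnd, chr10:52355489-52355738 on the + strand for Myh2 and chr2:245542865-245543114 on the - strand for Acadm. They run 5′ to 3′ towards the start, and capitals mark each CANNTG, the E-box letters that myogenic factors can bind, and each TATAAA, searched on both strands (the reverse complement of TATAAA reads TTTATA).
Myl4: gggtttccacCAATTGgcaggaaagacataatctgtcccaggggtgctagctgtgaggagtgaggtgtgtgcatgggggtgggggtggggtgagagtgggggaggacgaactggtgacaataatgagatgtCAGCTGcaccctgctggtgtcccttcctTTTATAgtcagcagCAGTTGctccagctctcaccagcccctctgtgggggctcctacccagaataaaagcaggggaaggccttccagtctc
Chrnd: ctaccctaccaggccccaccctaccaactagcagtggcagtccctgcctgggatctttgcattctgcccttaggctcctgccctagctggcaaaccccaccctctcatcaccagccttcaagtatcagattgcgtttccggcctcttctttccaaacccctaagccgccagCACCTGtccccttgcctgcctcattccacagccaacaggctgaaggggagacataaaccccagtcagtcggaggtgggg
Myh2: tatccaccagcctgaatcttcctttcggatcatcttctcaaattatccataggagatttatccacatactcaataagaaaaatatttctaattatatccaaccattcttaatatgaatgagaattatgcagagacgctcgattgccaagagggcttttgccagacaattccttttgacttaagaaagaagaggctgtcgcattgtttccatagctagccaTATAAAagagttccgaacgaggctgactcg
Acadm: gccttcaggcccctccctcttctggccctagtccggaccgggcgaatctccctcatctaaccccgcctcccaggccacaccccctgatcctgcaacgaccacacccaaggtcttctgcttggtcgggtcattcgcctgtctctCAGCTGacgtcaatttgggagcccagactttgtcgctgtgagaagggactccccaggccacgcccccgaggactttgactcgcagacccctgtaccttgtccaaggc
Myl4 held 3 matches to CANNTG, at 240, 119 and 77 bases before the start, and 1 match to TATAAA on the other strand at 91 bases. Chrnd held 1 match to CANNTG at 79 bases, Acadm 1 at 107 bases, and Myh2 held none but had TATAAA at 30 bases. Among 33469 RefSeq promoter windows of the same length, 65.5% held CANNTG and 12.9% held TATAAA on either strand, so a match to CANNTG is common. The matches are descriptions of these letters and not measured sites. Of the 97 genes named by rule, 85 had a window in the table used.

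Values are log2 of the deposited intensity, with lower values raised to a floor of 100 (log2 6.64), and a positive difference means higher at day 14. Errors after ± are standard errors of the difference from the fit over all 36 arrays. Array medians were 483.9 to 540.5 intensity units and the floor was reached by 19.3% to 21.9% of the values per array. Arrays correlated at 0.938 to 0.953 within day 7, at 0.934 to 0.939 within day 14 and at 0.904 to 0.936 between the ages. Day 14 replicate 3 lay nearest to day 7, with a mean correlation of 0.932 with the day 7 arrays against 0.908 and 0.911 for replicates 1 and 2. Of the 5 muscle markers tested, Des, the intermediate filament desmin, read 13.13 to 13.68 and Myh4, a fast myosin, 13.50 to 14.74 on the 6 arrays. Tnnt3, the fast troponin T, ran from 11.00 to 14.43 and Acta1, skeletal actin, from 9.29 to 9.80. Ckm, the muscle creatine kinase, lay at the floor on 4 of the 6 arrays. On day 7 replicate 3, Acta1, Ckm, a probe set of the growth factor Igf2 and 1 of the embryonic myosin Myh3 all read 9.45. On day 14 replicate 1, Acta1 and Ckm both read 9.80. Readings shared by unlike genes may not be expression, so Acta1 and Ckm are not taken as levels of muscle RNA.

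Libraries stood apart in 2 ways. Summed erythroid markers (9 genes) were 15857 intensity units on day 7 replicate 3 against 42811 and 41755 on replicates 1 and 2, while the sum of 12 cartilage and bone markers was 37067 there against 28253 and 23860, and that of 11 skin and epithelium markers was 7290 against 3067 and 2273. On day 14 replicate 2, 6 very bright probe sets fell at least 2 log2 units below both other arrays of the group, against 2 on day 14 replicate 1, 2 on day 7 replicate 3 and 0 on each of the other 3 arrays. They included Atp2a1, the fast calcium pump, at 6.64 against 14.31 and 13.79, and Tnnt3 at 11.00 against 13.44 and 13.65. Calls of named genes that were lost without 1 of these arrays are stated with the gene. Differences that did not pass, such as that of Tnnt3, are given with all arrays.

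In the second week 125 probe sets were higher and 135 were lower at day 14, which is 3.9% of the 6672 tested (1.87% higher and 2.02% lower) by limma at a Benjamini-Hochberg adjusted p under 0.05. Of these, 179 (2.68%) differed 2-fold or more. Counting each gene by 1 probe set, 78 of 3889 genes rose (2.01%) and 80 fell (2.06%), together 4.06%, and the median difference of all genes was -0.03. The 3 arrays of one age all lay above the 3 of the other for 903 genes (23.2%), of which 380 were higher and 523 lower at day 14. Of the 260 called probe sets only 3 had overlapping ages, so separate ages add no further support to a call. Of the 69 named genes called in leg, 32 had further probe sets, and of these 46 probe sets 44 had the same sign as the one used and 17 of them were called. Of the 24 genes with the largest differences, the plot of single arrays shows those that rose and those that fell. The count of 260 probe sets was 170 without day 7 replicate 1, 162 without day 7 replicate 2, and 167 without either day 14 replicate 1 or day 14 replicate 2.

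**Figure D1:**
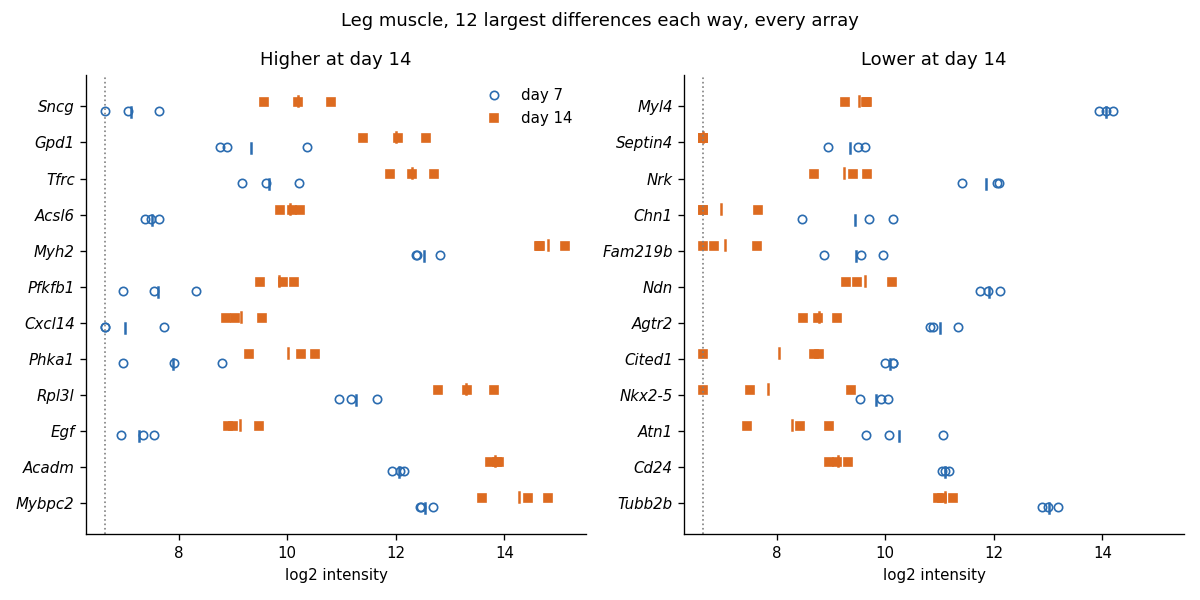
Log2 intensity on each array (x axis) of the 12 genes with the largest rise (left) and the 12 with the largest fall (right) from day 7 (open circles) to day 14 (filled squares) in leg. Vertical bars are group means of 3 arrays and the dotted line is the floor of log2 6.64. Myl4 stands at 13.93 to 14.20 at day 7 and 9.25 to 9.67 at day 14, and no gene shown has overlapping groups, which the rule of choice required.

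The largest change of the week was in Myl4, the light chain of embryonic muscle and of the atrium. It read 13.93, 14.06 and 14.20 on the day 7 arrays and 9.25, 9.65 and 9.67 on the day 14 arrays. The 3 day 7 values lay in the brightest 5% of all values and the ages were far apart. Myl4 fell by 4.54 ± 0.33 (adjusted p = 5.44e-11), and a second probe set of the gene fell by 4.81. Its group mean was 13.60 at day 0 and 8.96 at day 21, so that nearly all of its decline lay between days 7 and 14.

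Other isoforms of immature fibres moved less. Myh8, the perinatal myosin heavy chain, read 14.74, 14.58 and 14.75 at day 7 and 13.14, 13.56 and 13.42 at day 14, and fell by 1.31 ± 0.29 (adjusted p = 0.00482). The groups did not overlap, and 3 day 7 and 2 day 14 arrays were in the brightest 5%, where a difference can be compressed. Tnnt2, the embryonic and cardiac troponin T, fell by 1.69 ± 0.44 (adjusted p = 0.0253), and Nes, the intermediate filament nestin of immature fibres and of the junction, fell by 1.01 ± 0.19 (adjusted p = 0.00135), although its second probe set differed by -0.42 and was not called. In the developmental isoform list, 0 of 18 tested genes rose and these 4 fell (22.2% called), but the list's median of -0.06 was near that of all genes and ranged from -0.34 to 0.07 over the alternatives. The call of Tnnt2 was lost without any one of 5 arrays (all but day 14 replicate 1), with adjusted p up to 0.142.

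Myh3, the embryonic myosin heavy chain, did not give 1 answer. Its brightest probe set changed by 0.09 ± 0.39 (adjusted p = 0.982), with all arrays at 13.91 to 14.53. Another fell from a mean of 13.96 to 12.84 (difference -1.12) and passed the test, while 2 others differed by -0.89 and -1.29. The last one, which was at the floor on day 7 replicates 1 and 2 and on day 14 replicate 2 and read 13.43 and 13.38 on the other day 14 arrays, differed by 3.57.

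Among the genes of adult fast fibres, 3 passed the test and rose. Myh2 read 12.81, 12.38 and 12.37 at day 7 and 15.11, 14.64 and 14.65 at day 14, and rose by 2.28 ± 0.27 (adjusted p = 2.33e-06). Every day 14 array lay above every day 7 array by at least 1.83 log2 units. Mybpc2, the fast myosin-binding protein C, rose from 12.69, 12.47 and 12.44 to 14.80, 14.44 and 13.58, by 1.74 ± 0.33 (adjusted p = 0.00144). Pvalb, the calcium buffer parvalbumin of fast fibres, rose from 12.60, 12.66 and 12.21 to 14.59, 13.63 and 14.10, by 1.62 ± 0.33 (adjusted p = 0.00307). In both genes the ages were clear of each other. These were the 3 of 16 adult fast fibre genes that rose (18.8% called), 0 fell, and the median was 0.20. Tnnt3 was lower on every day 14 array, but its difference of -1.45 ± 1.04 did not pass (adjusted p = 0.583). That difference includes the low day 14 replicate 2 (11.00 against 13.44 and 13.65). The list's lowest difference, -2.45 for Atp2a1, includes the floor reading on the same array. It was also the lowest of the calcium handling and thyroid hormone responsive lists. Without any 1 array, 3 genes were still called and the list's median was 0.12 to 0.34. The list's median was -0.31 without the probe sets that reach the brightest 5%, a setting under which none of the 3 was tested.

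Myh4, the fast IIB myosin, read 13.50, 13.54 and 13.74 at day 7 and 14.74, 14.42 and 14.31 at day 14. The arrays did not overlap, but the difference of 0.90 ± 0.37 did not pass (adjusted p = 0.206), and all 6 values were in the brightest 5%. Myh1, the IIX myosin, differed by -0.31 ± 0.34 (adjusted p = 0.781), and Myh7, the slow myosin, by 0.28 ± 0.21 (adjusted p = 0.617). The second probe set of Myh7 differed by 0.69 and did not pass either (adjusted p = 0.197), although its ages did not overlap. Ckm differed by 0.12 ± 1.38 (adjusted p = 0.998), with 4 of 6 arrays at the floor and the rest at readings shared with Acta1, which may not be expression. Of the 12 slow fibre genes 0 rose and 1 fell (8.33% called, against 4.06% of all genes). It was Casq2, the slow and cardiac calsequestrin (-1.11 ± 0.23, adjusted p = 0.00365), which binds calcium in the sarcoplasmic reticulum. The slow list's median was 0.06, between -0.03 and 0.15 over the alternatives.

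At the neuromuscular junction, 1 subunit of the acetylcholine receptor carried the change. Chrnd read 11.89, 11.77 and 11.77 at day 7 and 10.50, 10.87 and 10.58 at day 14, with no overlap, and fell by 1.16 ± 0.18 (adjusted p = 0.000107). Its mean had been 11.84 at day 0 and was 9.90 at day 21. Chrna1, the alpha subunit, ran from 11.93 to 12.45 at day 7 and from 11.41 to 11.81 at day 14, and although the ages did not overlap, its difference of -0.56 ± 0.18 did not pass (adjusted p = 0.0748).

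The subunits that are exchanged in development did not pass the test in this week. Chrng, the fetal gamma subunit, differed by -0.14 ± 0.17 (adjusted p = 0.835) and Chrne, the adult epsilon subunit, by 0.43 ± 0.24 (adjusted p = 0.427), both with overlapping arrays. Between days 0 and 7 the same probe sets differed by -0.88 and 1.13, given as a description because these intervals share the day 7 arrays. That of Chrng had leg means of 12.24 at day 0 and still 11.26 at day 45. Whether it follows the gamma subunit alone was not tested. Of the 15 junction genes 0 rose and only Chrnd fell (6.67% called). The list's median was -0.09, ranging from -0.22 to 0.03 over the alternatives. Without day 7 replicate 3, 2 of the 15 fell.

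Some genes of excitation and calcium handling also changed in RNA level. Atp1b1, a subunit of the sodium pump, read 12.14, 12.14 and 12.38 at day 7 and 13.54, 13.80 and 14.10 at day 14, and rose by 1.59 ± 0.30 (adjusted p = 0.00132) with separate groups. Cacna1s, the voltage sensor of muscle, rose by 1.01 ± 0.26 (adjusted p = 0.0186), and Kcnj11, the pore of the ATP-sensitive potassium channel, by 0.98 ± 0.26 (adjusted p = 0.0277). These were the 3 of 16 ion channel and pump genes past the test, 0 fell, 14 of 16 differences were positive and the median was 0.39. The calcium handling list of 26 had Pvalb and Cacna1s higher and Casq2 lower, with a median of 0.16. Without day 7 replicate 2, day 14 replicate 1 or day 14 replicate 2 the calls of both Cacna1s (adjusted p up to 0.122) and Kcnj11 (up to 0.137) were lost, and 1 of the 16 ion channel genes remained past the test. The call of Kcnj11 was also lost without day 7 replicate 3 or day 14 replicate 3.

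Several enzymes of fat oxidation rose. Acadm, the medium-chain acyl-CoA dehydrogenase, read 12.15, 11.93 and 12.08 at day 7 and 13.89, 13.87 and 13.74 at day 14, and rose by 1.78 ± 0.18 (adjusted p = 1.34e-07). The arrays of an age lay within 0.22 log2 units of each other at day 7 and 0.15 at day 14. Fabp3, the fatty acid binding protein of muscle, rose from 12.60, 12.48 and 12.82 to 14.07, 14.22 and 14.23, by 1.54 ± 0.20 (adjusted p = 7.5e-06). Acsl6, which activates long-chain fatty acids, rose from 7.49, 7.64 and 7.38 to 10.23, 10.08 and 9.87, by 2.56 ± 0.40 (adjusted p = 0.000107). In none of the 3 did the ages overlap.

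Cpt2, which frees acyl groups inside the mitochondrion, rose by 1.05 ± 0.22 (adjusted p = 0.0034). Etfdh, which passes electrons from fat oxidation to the respiratory chain, Acaa2, a thiolase, and Hadhb, a subunit of the trifunctional protein, rose by 0.89, 0.77 and 0.64, and are named here as the rest of the list's calls, after their values were seen. In all, 7 of 33 genes of fatty acid use rose (21.2% called) and 0 fell, 29 of the 33 differences were positive, and the median was 0.38 against -0.03 over all genes. Over leave-outs of 1 array 5 to 6 of the 33 were called, and 3 were called when probe sets that reach the brightest 5% were dropped. Acadm, Fabp3, Acsl6 and Cpt2 kept their calls in each leave-out of 1 array. At least 1 of Etfdh, Acaa2 and Hadhb therefore lost its call in each.

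Summed fat cell markers were higher, although single markers went both ways. Of the 13 differences 9 were positive and 4 negative, down to -0.73, with a median of 0.13. With separate arrays, 4 were higher and 2 lower. The summed level of 13 adipocyte markers was 35521 to 37183 intensity units at day 7 and 44260 to 48961 at day 14, without overlap, although 0 of the 13 passed limma's test (4 at an unadjusted p under 0.05), and none was at the floor on all 6 arrays. Fabp4, the fat cell fatty acid binding protein, differed by 0.83 ± 0.25 (adjusted p = 0.0598), and Scd, a fatty acid desaturase, by 0.95 ± 0.51 (adjusted p = 0.387), with 12.44 on day 14 replicate 1 and 9.75 to 10.56 on the other 5 arrays. With arrays scaled to the same median, and with a filter at the 60th percentile, 2 of the 13 rose, and 1 rose with quantile normalization, with no filter on dim probe sets or without day 7 replicate 3. The part of fat cells in the fatty acid results was not tested. Of 20 fat synthesis genes 1 rose, Me1, the malic enzyme (1.43 ± 0.27, adjusted p = 0.00138, with 1 of 4 other probe sets at -0.12), and 0 fell, with a median of -0.17. That is 5% called, against 4.06% of all genes. Without day 14 replicate 3, 2 of the 20 fell, and without day 14 replicate 2, 1 did.

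Mitochondrial genes rose by smaller amounts. Ckmt2, the mitochondrial creatine kinase of muscle, read 13.05, 12.90 and 13.25 at day 7 and 13.83, 14.37 and 14.35 at day 14, and rose by 1.11 ± 0.25 (adjusted p = 0.00645). Its arrays did not overlap. Idh3g, of the citrate cycle, rose by 0.89 ± 0.22 (adjusted p = 0.0166), Cox7b, of cytochrome oxidase, by 0.69 ± 0.19 (adjusted p = 0.0288), Sdha, of complex II, by 0.61 ± 0.17 (adjusted p = 0.0312), and Pdhb, of pyruvate dehydrogenase and named after its value was seen, by 0.60 ± 0.17 (adjusted p = 0.046). So 5 of 32 genes of oxidative phosphorylation and the citrate cycle rose (15.6% called), 0 fell, 29 of 32 differences were positive and the median was 0.32.

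These mitochondrial calls were fragile in number. Without day 7 replicate 1 or day 7 replicate 3, 1 of the 32 was called, without day 14 replicate 2 it was 2, and without day 14 replicate 1 or 3 it was 3. The calls of Idh3g and Sdha were lost without day 7 replicate 1, day 7 replicate 3 or day 14 replicate 2 (adjusted p up to 0.116 and 0.22), and that of Cox7b without any array but day 14 replicate 2 (up to 0.197). Ckmt2 kept its call in each leave-out. By these counts the call of Pdhb was lost without any array but day 7 replicate 2. The list's median stayed between 0.24 and 0.44 over the alternatives run.

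Some changes in glycogen and glycolysis were larger. Gpd1, the cytosolic glycerol-3-phosphate dehydrogenase, read 8.77, 10.37 and 8.88 at day 7 and 12.03, 12.55 and 11.40 at day 14, and rose by 2.66 ± 0.65 (adjusted p = 0.0147). Phka1, the muscle alpha subunit of phosphorylase kinase, which turns on glycogen breakdown, rose from 6.97, 8.80 and 7.91 to 10.25, 10.52 and 9.29, by 2.13 ± 0.45 (adjusted p = 0.00429). The ages were apart in both, although day 7 replicate 2 was the highest of its group in each. Phkg1, the catalytic subunit of the same kinase, rose by 0.80 ± 0.20 (adjusted p = 0.0168).

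Pfkfb1, which sets the level of a regulator of glycolysis, rose by 2.24 ± 0.49 (adjusted p = 0.00496), but its 3 other probe sets differed by 0.88, 0.59 and 0.25 and were not called. In all 4 of 23 glycolysis and glycogen genes rose (17.4% called), 0 fell and the median was 0.22. Aldoa, the muscle aldolase, chosen after its value was seen as the list's lowest, differed by -3.05 ± 1.07 and did not pass. The count was 2 without day 7 replicate 1, day 7 replicate 3, day 14 replicate 1 or day 14 replicate 2. The call of Gpd1 was lost without each of these 4 arrays (adjusted p up to 0.0876), that of Phka1 without day 7 replicate 1 (0.0559), and that of Phkg1 without day 7 replicate 3 or day 14 replicate 1 or 2 (up to 0.141).

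Creatine metabolism showed opposite moves. Gatm, the first enzyme of creatine synthesis, fell from 13.02, 13.07 and 12.91 to 11.39, 11.48 and 11.24, a difference of -1.63 ± 0.35 (adjusted p = 0.004), with the ages far apart. It was the only one of 10 creatine and phosphotransfer genes that fell, and Ckmt2 the only one that rose, with a list median of 0.06 (-0.26 to 0.12 over the alternatives). Slc16a3, the lactate exporter of fast fibres, was the 1 of 25 solute carriers that rose (1.22 ± 0.29, adjusted p = 0.00913), with a list median of 0.09. That is 4% called, against 4.06% of all genes. The call of Slc16a3 was lost without day 7 replicate 1 or day 14 replicate 2 (adjusted p up to 0.0691). Without those arrays 0 of the 25 were called, and without day 14 replicate 1 it was 2.

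**Figure D2:**
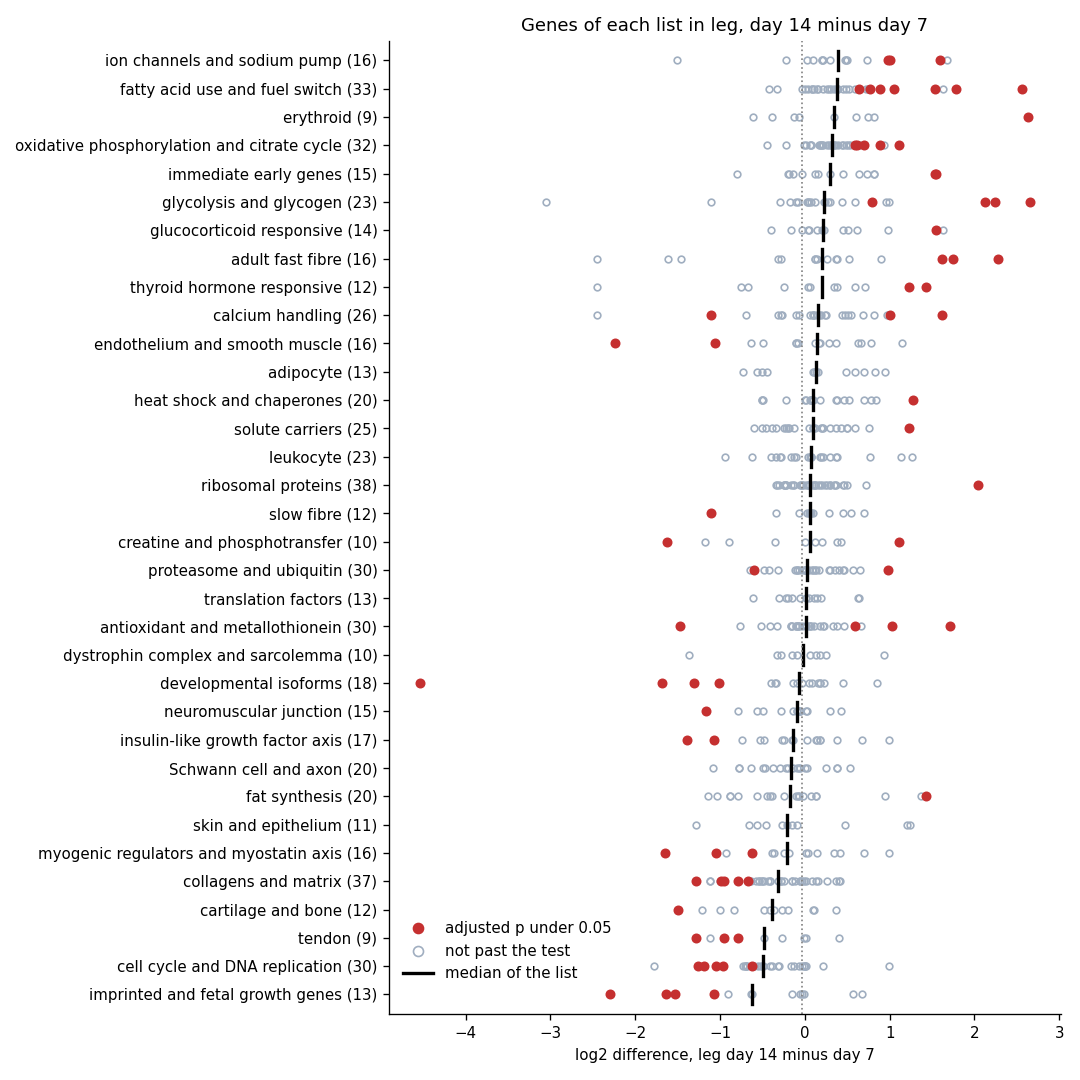
Log2 difference of day 14 minus day 7 in leg (x axis) for each tested gene of 34 lists (rows, with the number of genes tested), filled where adjusted p was under 0.05. Short vertical bars are list medians and the dotted line is the median of all genes. The imprinted and fetal growth list has the lowest median (-0.62) and the ion channel list the highest (0.39).

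Several imprinted and fetal growth genes fell. Ndn, the imprinted growth suppressor necdin, read 11.75, 12.12 and 11.89 at day 7 and 9.28, 9.47 and 10.12 at day 14, and fell by 2.29 ± 0.35 (adjusted p = 9.48e-05). Gpc3, a glypican that restrains growth, fell from 13.33, 13.26 and 13.55 to 11.70, 11.42 and 12.09, a difference of -1.64 ± 0.22 (adjusted p = 1.18e-05). Plagl1, an imprinted zinc finger factor, fell from 14.44, 14.36 and 14.14 to 12.73, 12.76 and 12.85, a difference of -1.53 ± 0.22 (adjusted p = 5.13e-05). None of these 3 had overlapping ages.

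Igf2r, the receptor that clears insulin-like growth factor 2, fell by 1.07 ± 0.24 (adjusted p = 0.00693). It makes 4 of 13 tested genes of the imprinted and fetal growth list that fell (30.8% called), with 0 that rose, 11 of 13 differences negative and a median of -0.62. Igf2 itself, the fetal growth factor, did not change by the test at any of 5 probe sets. The one that stands for the gene differed by 0.67 ± 0.66 (adjusted p = 0.749), but may not measure it. It read 9.45, 9.29 and 9.45 at day 7 and 9.39 on day 14 replicate 2, where Acta1 read 9.44, 9.29, 9.45 and 9.39. The other probe sets differed by 0.01, 0.31, -0.10 and -0.17, and the brightest of them had means of 13.22 and 13.23. Among 17 genes of the insulin-like growth factor axis 2 fell, Igf2r and the binding protein Igfbp3 (-1.39 ± 0.30, adjusted p = 0.00473), and 0 rose. That list's median was -0.13, ranging from -0.18 to 0.08 over the alternatives. Without day 7 replicate 1 the call of Igf2r was lost (adjusted p = 0.0517), which left 1 of the 17.

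Regulators of muscle formation fell where they were called. Fstl1, a secreted relative of follistatin, read 14.12, 14.05 and 13.81 at day 7 and 12.06, 12.09 and 12.89 at day 14, and fell by 1.65 ± 0.36 (adjusted p = 0.00496). Id2, an inhibitor of myogenic and other helix-loop-helix factors, fell by 1.05 ± 0.28 (adjusted p = 0.0283), and Acvr2b, a receptor of myostatin, fell by 0.62 ± 0.18 (adjusted p = 0.0466) at 1 of its 2 probe sets, with -0.16 at the other. These were 3 of 16 genes, with 0 that rose and a median of -0.22. In Fstl1 and Id2, day 14 replicate 3 was the day 14 array nearest to day 7. The calls of Id2 (adjusted p up to 0.183) and Acvr2b (up to 0.258) were lost without any one of day 7 replicates 1 and 2 and day 14 replicates 1 and 2, which left 1 of 16, and that of Acvr2b also without day 7 replicate 3.

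Of the cell cycle genes 5 passed the test, and all 5 fell. Ccnd3, cyclin D3, read 13.79, 13.89 and 13.87 at day 7 and 12.46, 12.71 and 12.60 at day 14, and fell by 1.26 ± 0.17 (adjusted p = 1.3e-05). Its ages did not overlap, and its 2 other probe sets differed by -1.07 and -1.36. Mcm6, a subunit of the replication helicase, fell by 1.19 ± 0.24 (adjusted p = 0.00274), while another probe set of it differed by 0.11. Stmn1, stathmin, which destabilises microtubules, fell by 0.96 ± 0.23 (adjusted p = 0.0105).

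With Id2 and Cdk4, a kinase that cyclin D activates (named after its value was seen), 5 of 30 cell cycle genes fell (16.7% called), 0 rose, 25 of 30 differences were negative and the median was -0.50. Over single leave-outs 2 to 6 of the 30 were called, with 2 without day 14 replicate 1 and 3 without day 7 replicate 1, 2 or 3 or day 14 replicate 2. The call of Stmn1 was lost without day 7 replicate 3 or day 14 replicate 1 (adjusted p up to 0.0797). Ccnd3 and Mcm6 kept theirs in each leave-out, so by these counts Cdk4 lost its call without any array but day 14 replicate 3. The median was negative under every alternative run, at -0.53 to -0.38.

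Matrix and tendon genes were lower at day 14 where they were called. Col12a1, a collagen of tendon and muscle sheaths, read 11.53, 11.31 and 11.54 at day 7 and 10.13, 10.17 and 10.24 at day 14, and fell by 1.28 ± 0.26 (adjusted p = 0.00262). Fn1, fibronectin, fell from 14.15, 13.91 and 13.77 to 13.07, 12.93 and 12.88, a difference of -0.99 ± 0.20 (adjusted p = 0.00276). The ages were apart in both. Thbs4, a thrombospondin of the muscle-tendon junction, fell by 0.95 ± 0.27 (adjusted p = 0.0356), and Bgn, the proteoglycan biglycan, fell by 0.79 ± 0.18 (adjusted p = 0.00888).

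With Mmp2, a matrix protease named after its value was seen, 5 of 37 collagen and matrix genes fell (13.5% called), 0 rose and the median was -0.32. In the tendon list 3 of 9 fell, all 3 also on the matrix list, and the median was -0.48, while the summed tendon level overlapped between the ages (84854 to 91219 and 74297 to 86577 intensity units). The calls of Thbs4 (adjusted p up to 0.186) and Bgn (up to 0.0794) were lost without any one of day 7 replicates 1 and 2 and day 14 replicates 1 and 2, which left 1 of 9 tendon genes, and that of Thbs4 also without day 7 replicate 3. In the matrix list 2 of 37 were left without day 7 replicate 1 or day 14 replicate 1 or 2, and 3 without day 7 replicate 2 or 3. Col12a1 and Fn1 kept their calls in each leave-out. By these counts Mmp2 lost its call without day 7 replicate 1 or 3 or day 14 replicate 1 or 2.

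Markers of other cells were mostly level in sum. Of 12 cartilage and bone markers 1 fell, Col2a1, the cartilage collagen (-1.50 ± 0.41, adjusted p = 0.0333), which read 11.50, 11.28 and 13.24 at day 7 and 10.34 to 10.73 at day 14. Without day 7 replicate 3, the array with the high cartilage sum, it was not called, nor without day 14 replicate 1 or 2 (adjusted p up to 0.287). Agtr2, the angiotensin type 2 receptor, fell from 10.88, 10.83 and 11.34 to 8.48, 8.75 and 9.11, a difference of -2.24 ± 0.29 (adjusted p = 9.49e-06), and its second probe set fell by 2.22. With Tagln, a smooth muscle actin-binding protein (-1.05 ± 0.28, adjusted p = 0.0246), it made 2 of 16 endothelium and smooth muscle markers that fell, while the list's sum overlapped (29306 to 32039 and 29520 to 30045 intensity units) and its median was 0.14 (-0.01 to 0.27 over the alternatives). The call of Tagln was lost without day 7 replicate 2 or 3 or day 14 replicate 1 or 2 (adjusted p up to 0.141), which left 1 of 16.

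Counts of 0 came from limma for 20 Schwann cell and axon markers (1 at an unadjusted p under 0.05), 23 leukocyte markers (3) and 11 skin and epithelium markers (3), and the summed levels of these lists overlapped between the ages. The leukocyte median was 0.07 and the skin and epithelium median -0.21, with ranges of -0.05 to 0.12 and -0.54 to 0.52 over the alternatives. Sox10, which defines Schwann cells, was at the floor on all 6 arrays. Values of the largest differences were -1.08 ± 0.60 for Prph, an axonal filament, and -0.78 ± 0.43 for Cnp, a myelin enzyme. Cd74 and RT1-Da, of antigen presentation, differed by 1.27 ± 0.52 and 1.14 ± 0.47. Krt8, a keratin of simple epithelia, differed by -1.28 ± 0.38 (adjusted p = 0.0543) with all day 14 arrays at the floor, and Tspan8, a tetraspanin of epithelia, by 1.24 ± 0.40 (adjusted p = 0.0765).

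Tfrc, the transferrin receptor that brings iron into cells, was the only one of 9 genes on the erythroid list past the test, and the list's median was 0.34 (-0.07 to 0.54 over the alternatives). It read 9.16, 9.61 and 10.22 at day 7 and 12.30, 12.70 and 11.89 at day 14, and rose by 2.63 ± 0.34 (adjusted p = 7.02e-06). Its lowest day 14 array lay 1.67 log2 units above its highest day 7 array. Summed erythroid markers overlapped, at 15857 to 42811 intensity units at day 7 and 39601 to 50647 at day 14. Tfrc was called in each of the 6 leave-outs of 1 array, with adjusted p up to 0.000204, day 7 replicate 3 with its low erythroid sum included.

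The lists for hormones, stress and activity had 1 or 2 genes each past the test. Each share was above the 4.06% of all genes. Dusp1, a phosphatase of stress kinases, rose by 1.55 ± 0.34 (adjusted p = 0.00477). It was the 1 of 14 glucocorticoid responsive genes past the test (7.14% called, against 4.06% of all genes). Of 15 immediate early genes 2 rose (13.3% called), Dusp1 and Nr4a1, an orphan nuclear receptor that stimuli induce quickly. Nr4a1 read 11.33, 10.70 and 10.61 at day 7 and 12.83, 12.76 and 11.63 at day 14, and rose by 1.53 ± 0.31 (adjusted p = 0.00239), with a gap of 0.30 between its nearest arrays. None fell in either list, and the medians were 0.22 and 0.29. The call of Dusp1 was lost without day 7 replicate 2 (adjusted p = 0.0518), which left 0 of 14 and 1 of 15, and its 2 other probe sets differed by 0.84 and 0.65. Of 12 thyroid hormone responsive genes, Me1 and Slc16a3 rose (16.7% called) and 0 fell, with a median of 0.20. Me1 is also on the fat synthesis list and Slc16a3 among the solute carriers. Without day 7 replicate 1 or day 14 replicate 2, 1 of 12 was left.

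In antioxidant defence, Sod2, the mitochondrial superoxide dismutase, read 9.93, 9.45 and 10.52 at day 7 and 11.96, 12.18 and 10.90 at day 14, and rose by 1.72 ± 0.32 (adjusted p = 0.00107). Hmox1, which breaks down heme, moved the other way, from 11.60, 11.90 and 11.62 to 10.31, 10.15 and 10.24 (-1.47 ± 0.23, adjusted p = 9.48e-05), while its second probe set differed by -0.50 and was not called. The ages did not overlap in Sod2 or in the first probe set of Hmox1. Selenow, a selenoprotein of muscle, rose by 1.03 ± 0.26 (adjusted p = 0.0173) and Prdx3, the mitochondrial peroxiredoxin, by 0.60 ± 0.15 (adjusted p = 0.0173), so that 3 of 30 rose and 1 fell. The median was 0.02, between -0.10 and 0.16 over the alternatives. The calls of Selenow and Prdx3 were lost without day 7 replicate 1 or day 14 replicate 2 (adjusted p up to 0.124 and 0.128), which left 2 of 30, and that of Selenow also without day 7 replicate 2 or day 14 replicate 3.

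Protein making and turnover held few calls. Rpl3l, the muscle paralog of a ribosomal protein, read 11.66, 11.17 and 10.96 at day 7 and 13.81, 12.78 and 13.31 at day 14, without overlap, and rose by 2.04 ± 0.35 (adjusted p = 0.000479). Its second probe set rose by 1.17. It was the 1 of 38 ribosomal genes past the test (2.63% called, below the share over all genes), with a list median of 0.07 (-0.24 to 0.13). Hspa1a, an inducible heat shock protein with a near-identical copy that the probes may share, was the 1 of 20 chaperones that rose (1.28 ± 0.27, adjusted p = 0.00412). That is 5% called, against 4.06% of all genes.

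Capn3, the muscle calpain, rose by 0.99 ± 0.26 (adjusted p = 0.0277) and Psme1, a proteasome activator, fell by 0.60 ± 0.17 (adjusted p = 0.0393) with its second probe set at -0.10, the 2 of 30 proteasome and ubiquitin genes past the test (6.67% called, against 4.06% of all genes). Both calls were lost without any one of day 7 replicates 1 and 3 and day 14 replicates 1 and 2 (adjusted p up to 0.152 and 0.277), which left 0 of 30, and that of Psme1 also without day 7 replicate 2. Of 13 translation factors 0 passed limma's test (3 at an unadjusted p under 0.05), with Eif4a2, a helicase, at 0.64 ± 0.25 and Eif4ebp1, an inhibitor of cap-dependent translation, at 0.62 ± 0.48, and 1 fell without day 7 replicate 1. That list's median was 0.02 (-0.05 to 0.08 over the alternatives). Of 10 dystrophin complex genes 0 passed limma's test either (0 at an unadjusted p under 0.05) and the median was -0.02 (-0.10 to 0.14), with Dmd, dystrophin, at -1.36 ± 0.70 and Nos1, the neuronal nitric oxide synthase, at 0.93 ± 0.57.

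Several of the largest differences were in genes on no list. Sncg, gamma-synuclein, read 7.07, 6.64 and 7.64 at day 7 and 10.21, 10.81 and 9.57 at day 14, and was at least 8.44-fold higher (3.08 ± 0.65, adjusted p = 0.004), since day 7 replicate 2 was at the floor. Cxcl14, a chemokine, was higher by 2.14 ± 0.43 (adjusted p = 0.00272) with 2 day 7 arrays at the floor, but its second probe set differed by 0.34. Egf, the epidermal growth factor, read 6.94 to 7.55 at day 7 and 8.91 to 9.49 at day 14, and rose by 1.85 ± 0.39 (adjusted p = 0.0034), and its second probe set differed by 1.90. The ages did not overlap in these genes, which the rule of choice required.

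Septin4, a filament-forming GTPase, read 9.51, 9.62 and 8.95 at day 7 and lay at the floor on all 3 day 14 arrays, so it was at least 6.56-fold lower (adjusted p = 0.000267). Nrk, a kinase of developing muscle, fell from 12.06, 12.09 and 11.41 to 9.66, 8.69 and 9.41, a difference of -2.60 ± 0.40 (adjusted p = 8.9e-05). Tubb2b, a beta-tubulin of developing tissue, fell from 12.89, 12.99 and 13.18 to 10.98, 11.05 and 11.26, a difference of -1.93 ± 0.24 (adjusted p = 3.85e-06). Cd24, a surface glycoprotein of immature cells, fell by 1.97 ± 0.38 (adjusted p = 0.0017), and its 2 other probe sets differed by -2.33 and -2.11.

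Weaker evidence stood behind 5 of the 12 largest falls. Chn1, a Rac-inactivating protein, fell by 2.46 ± 0.65 (adjusted p = 0.0257) with 2 day 14 arrays at the floor, while its second probe set differed by -0.32. Fam219b fell by 2.42 ± 0.56 (adjusted p = 0.00797), Cited1, a transcriptional coactivator, fell by 2.06 ± 0.58 (adjusted p = 0.0361), and Atn1, a transcriptional corepressor, fell by 1.98 ± 0.58 (adjusted p = 0.0473). Nkx2-5, a homeobox factor of the heart, read 10.05, 9.92 and 9.54 at day 7 and 6.64, 7.51 and 9.36 at day 14, at least 3.99-fold lower (adjusted p = 0.0347) since 1 array was at the floor, and day 14 replicate 3 nearly reached the day 7 arrays. Single leave-outs took away the call of Chn1 (adjusted p up to 0.135) and Atn1 (0.242), without day 7 replicate 1 or 2 or day 14 replicate 2 or 3. Cited1 (0.228) lost it without any day 7 array or day 14 replicate 3, Nkx2-5 (0.278) without any array but day 14 replicate 3, and Fam219b (0.0605) without day 7 replicate 2 or day 14 replicate 2.

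Leg means at the other ages place the week within development, as a description, since neighbouring intervals share arrays. The adult isoform genes had larger differences in the first week, 3.17 for Myh2, 3.62 for Mybpc2, 3.67 for Pvalb and 3.45 for Myh4 between days 0 and 7. From day 14 to day 21 these 4 differed by 0.17, -0.03, -0.04 and 0.36. Acadm, Fabp3 and Tfrc had differed by 0.77, 0.43 and 0.69 in the first week, less than in the second, and by 0.06, 0.44 and -0.52 in the third. Myh8 differed by 0.35 in the first week and by -2.28 in the third, and its leg mean was 7.15 at day 45. Myl4, in contrast, differed by 0.46 and -0.56 on either side of its fall.

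**Figure D3:**
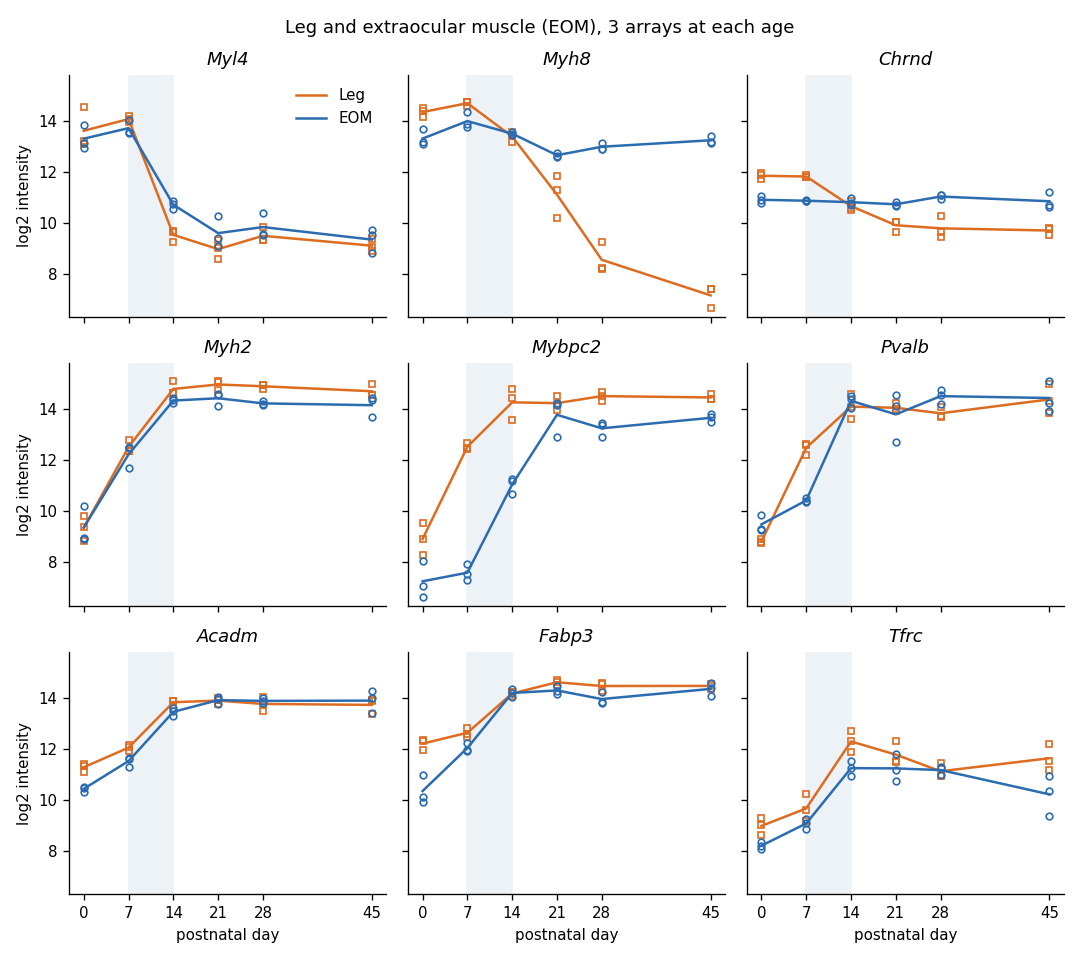
Log2 intensity (y axis) against postnatal day (x axis) for 9 genes in leg (squares) and EOM (circles), with a point for each array and lines through the means of 3 arrays. The shaded band is the week from day 7 to day 14, in which leg Myl4 falls from a mean of 14.06 to 9.52 and leg Acadm rises from 12.05 to 13.83.

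The same week was then compared with EOM, whose arrays are not shared with leg. Of the 158 leg genes past the test, 145 (91.8%) differed with the same sign in EOM, against 64.9% of all 3889 genes. By the test of the difference between the changes, 32 of 6672 probe sets passed (0.48%), 22 with leg above EOM (0.33%) and 10 below (0.15%), and 19 of 3889 genes did (0.489%). The count of 32 was 18 and 21 without leg day 7 replicates 1 and 2, 21 without leg day 14 replicate 2, 19 and 13 without EOM day 7 replicates 1 and 2, 19 without EOM day 14 replicate 1 and 53 without EOM day 14 replicate 3. A difference that does not pass this test does not show that the muscles changed equally. Myl4 fell by 3.00 ± 0.33 in EOM, and its difference of changes did not pass (adjusted p = 0.174). Tfrc, Acadm and Myh2 rose in EOM by 2.17, 1.93 and 2.11.

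Among muscle genes, 3 differed between the muscles by that test. Chrnd differed by -0.06 ± 0.18 in EOM, so that leg minus EOM was -1.10 (adjusted p = 0.0383), with EOM means of 10.86 at day 7 and 10.80 at day 14. Pvalb differed by 3.91 ± 0.33 in EOM, so that leg minus EOM was -2.29 (adjusted p = 0.0125), from a day 7 mean of 12.49 in leg and 10.43 in EOM. Myh4 differed by 3.59 ± 0.37 in EOM, so that leg minus EOM was -2.69 (adjusted p = 0.00912), and both muscles reached the brightest values by day 14 (14.49 and 14.34). The calls of Chrnd (adjusted p up to 0.14) and Pvalb (up to 0.0615) were lost in 10 and 3 of 12 leave-outs of 1 array. For Chrnd these were all but leg day 14 replicate 2 and EOM day 14 replicate 3, and for Pvalb leg day 14 replicate 2, EOM day 7 replicate 2 and EOM day 14 replicate 1.

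Klk1, a tissue kallikrein from a family of near-identical genes, read 13.93, 13.97 and 13.62 in leg at day 7 and 12.55, 12.36 and 12.91 at day 14, a difference of -1.23 ± 0.29 (adjusted p = 0.00991). In EOM it differed by 1.83 ± 0.29, and the difference of changes was -3.07 (adjusted p = 0.000189), called in all 12 leave-outs. A second probe set of Klk1 differed by -1.14 in leg. The leg call of Klk1 was lost without day 7 replicate 2 or day 14 replicate 2 (adjusted p up to 0.0676).

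**Figure D4:**
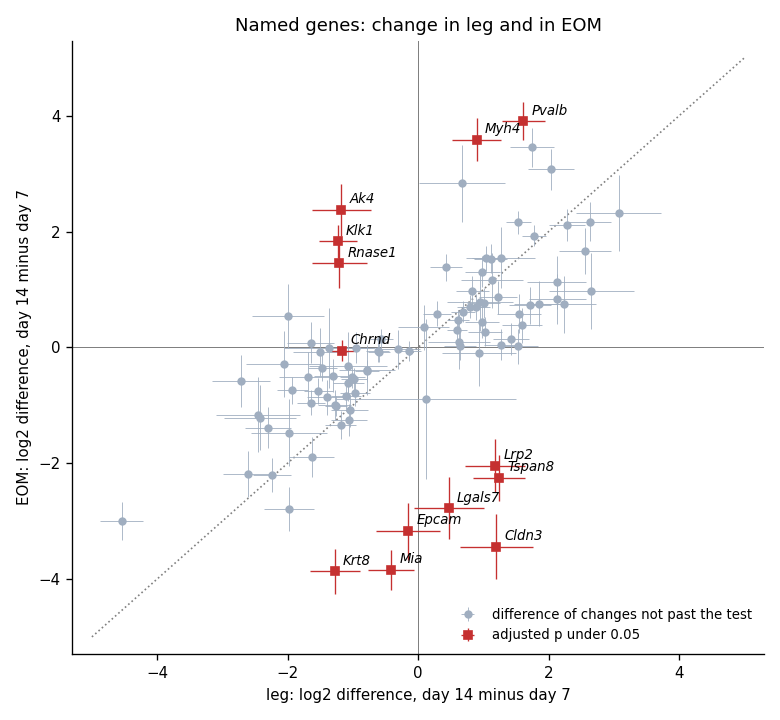
Log2 difference of day 14 minus day 7 in leg (x axis) and in EOM (y axis) for the genes named by rule, with standard errors, and squares where the difference between the muscles had adjusted p under 0.05. Genes on the dotted line changed equally, and Klk1 (-1.23 in leg and 1.83 in EOM) and Pvalb (1.62 and 3.91) lie above it. The 7 squares below it were genes too dim in leg at day 7 to fall as far as they did in EOM.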

How the data were processed

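Total RNA of 36 samples was hybridised to RG-U34A arrays, per the labels. The authors deposited 1 linear intensity per probe set and array, and the near-equal trimmed means of the arrays show that the deposited intensity was already scaled. Which program combined the probes into these values is not stated in the sources used here. Groups, ages and replicate numbers were taken from the titles. Values were floored at 100 and turned to log2. Without 59 controls, the 6672 of 8799 probe sets above the 40th percentile (320.4) on 3 or more of 36 arrays were tested. Group means were fitted with limma 3.58.1 in R 4.3.3 (lmFit, eBayes with a trended prior, 24 residual and 5.84 prior degrees of freedom), with Benjamini-Hochberg adjustment over all tested probe sets and a threshold of 0.05. Contrasts were leg day 14 against day 7, and that change against the same change in EOM. The fit was tested on simulated data. Figures used matplotlib 3.10.9 in Python 3.11.15.

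The platform annotation of 2016 named 7006 probe sets by 1 symbol and 308 by several, and 1426 are unnamed here, and 6985 matched the gene table by identifier with 0 symbols updated. For each gene the probe set with the highest mean over the 36 arrays was used, so that 3889 genes were tested. The array groups, the gene lists (26 of programs and 8 of other cells) and the rule for named genes were chosen with earlier results of these data known. Named are the 12 largest called differences each way with separate arrays, up to 4 called genes a list, or 2 as values where none was called, the 6 largest differences each way between the muscles, and Myh1, Myh2, Myh3, Myh4, Myh7, Myh8, Chrna1, Chrnd, Chrng, Chrne, Pvalb, Ckm and Igf2. Of 586 list genes, 63 are on more than 1 list. The number of arrays limits the precision, and values at the floor or in the brightest 5% (above log2 13.20) can understate a difference.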

Additional observations from a re-analysis of the deposited data

Results flagged for a closer look

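The change from day 7 to day 14 differed between leg and EOM by limma's test of the difference for 13 of the named genes, which is what sets them apart here. Cldn3 and Epcam, proteins of epithelial junctions, had leg changes above the EOM changes by 4.64 and 3.02 log2 units. In leg they differed by 1.20 and -0.16, and in EOM by -3.44 and -3.17. Tspan8 (3.50), Mia, a secreted protein of cartilage (3.43), Lgals7, a galectin of stratified epithelia (3.25), Lrp2, an endocytic receptor (3.22), and Krt8 (2.59) had the same sign. For these 7 genes the leg difference was not past the test, and the EOM difference was negative in each, at -2.04 to -3.87. Their leg means at day 7 lay only 0.50 (Mia) to 2.08 (Tspan8) log2 units above the floor. Leg could therefore not fall by as much as EOM did, and the difference holds an EOM fall that leg could not match. It also holds the leg differences, which went both ways. Besides Cldn3 and Epcam, these were 1.24 for Tspan8, 1.18 for Lrp2, 0.47 for Lgals7, -0.42 for Mia and -1.28 for Krt8. These parts were not tested apart.

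Below the EOM change lay Ak4, a mitochondrial adenylate kinase (-3.55, with leg at -1.17 and EOM at 2.37), Klk1 (-3.07), Myh4 (-2.69), Rnase1, a secreted ribonuclease (-2.66, with leg at -1.21 and EOM at 1.46), Pvalb (-2.29) and Chrnd (-1.10). Ak4 was at the floor on all 3 leg day 14 arrays and all 3 EOM day 7 arrays, so the floor sets its value, which ran from -4.41 to -1.88 over the alternatives. The calls of Lgals7, Epcam, Rnase1 and Krt8 were lost in 8, 10, 8 and 5 of 12 leave-outs of 1 array, with adjusted p up to 0.187, 0.163, 0.144 and 0.155, and that of Lrp2 in 1, without EOM day 7 replicate 2. With only the compared arrays the calls of Tspan8 (adjusted p = 0.0627), Lrp2, Epcam, Rnase1, Krt8 and Lgals7 were lost, and that of Lgals7 also with median scaling, quantile normalization, a floor at 50, no filter or a filter at the 60th percentile. Epcam lost its call with no filter, Rnase1 with the floor at 200 and Krt8 with the floor at 50. The part of glandular or other epithelial RNA in these differences was not tested.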

How the results depend on the processing

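The leg comparison of 260 called probe sets gave 162 to 279 when 1 array was left out, 136 from the 6 compared arrays alone and 150 after dropping every probe set that reaches the brightest 5% of values. Scaling the arrays to the same median gave 146 higher and 113 lower. Same-numbered arrays of the 2 ages deviated together only at correlations of 0.0702, 0.0575 and 0.0529, so the replicate numbers were not taken as pairs, although 6 of 6 arrays correlated best with their own number. The pairs of leg with EOM at day 7 (0.168, 0.131 and 0.295), leg with EOM at day 14 (0.116, 0.105 and 0.164) and EOM day 7 with day 14 (0.157, 0.173 and 0.301) were higher, so the difference of the changes may be paired in part. With the replicate number as a block over all 36 arrays the count was 370, and with the block on the 6 arrays alone it was 14, and of the chaperones 4 and 0 were called where the fit without the block called 1. The difference of the changes, 32 probe sets, gave 13 to 53 when 1 array was left out, 52 with the floor at 200, 21 from the compared arrays alone and 47 with the replicate block. Of the 69 named genes called in leg, 40 kept their call in all 6 leave-outs, 25 lost it with the 6 arrays alone, 5 with median scaling and 60 with the block on the 6 arrays, and 9 kept it everywhere. None of these 69 changed direction under an alternative run, and list medians that changed sign are given with their range beside the list.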
